A study of Mus musculus with 24 samples.

Results

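The genes described here were Nnt, Rab6b, A430005L14Rik and Wdfy1, 4 of the 11597 genes measured, whose lung mRNA stood apart between Tnfr-/- and Tnfr+/+ mice at every exposure. They were selected on the difference between the genotypes in these same arrays, so the size and the constancy of that difference are given below as a description, with no test. Every probe set annotated to one of the 4 genes alone was taken, which gave 7 of the 22644 probe sets of the array, and all 7 were among the 20537 probe sets kept after the filter on low values. The mice lacking both TNF receptors (Tnfr-/-, B6.129S-Tnfrsf1a tm1Imx Tnfrsf1b tm1Imx/J) carried disrupted Tnfrsf1a and Tnfrsf1b alleles in every cell and came from a line made in 129S and crossed to B6. Their controls (Tnfr+/+) were C57BL/6J mice, and no littermate controls are named. All were young adult males. Each genotype was studied in filtered air and after 24, 48 or 72 h of continuous exposure to 0.3 ppm ozone (O3), with left lung RNA of 3 mice per group, 1 mouse per MOE430A array, and 24 arrays in 8 groups. Because strain background and receptor loss differed together between the genotypes, the contributions of the strain background and of the receptor loss to any difference below cannot be told apart.

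Nnt encodes the nicotinamide nucleotide transhydrogenase of the inner mitochondrial membrane, which uses the proton gradient to make NADPH for the removal of peroxides. C57BL/6J mice are known for an Nnt allele that lacks several exons, while many other inbred strains carry the full gene. Rab6b encodes a small Rab GTPase of the Golgi apparatus that directs vesicle traffic and is best known from neurons. Wdfy1 encodes a protein with WD repeats and a FYVE domain, a fold that binds phosphatidylinositol 3-phosphate on early endosomes, and has been linked to Toll-like receptor signaling from endosomes. A430005L14Rik is a RIKEN clone name, and no role is given here. Homologous recombination in 129-derived stem cells followed by crossing to B6 is known to leave 129 sequence around a disrupted gene, so the place of each gene relative to Tnfrsf1a and Tnfrsf1b is described after its values.

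RefSeq promoters were at hand for Rab6b and A430005L14Rik. They are shown because both belong to the C57BL/6J reference sequence, the strain of the Tnfr+/+ mice, and because the 2 genes moved in opposite directions. Each runs 5′ to 3′ over 250 bases before and 50 bases after the annotated start of the gene on build GRCm38.p6, at chr9:103111824-103112123 (plus strand) for Rab6b and chr4:153956987-153957286 (plus strand) for A430005L14Rik. Capitals mark matches on either strand to the GC box (GGGCGG), the CCAAT box (CCAAT) and the E-box (CACGTG), which do not overlap one another here.
Rab6b: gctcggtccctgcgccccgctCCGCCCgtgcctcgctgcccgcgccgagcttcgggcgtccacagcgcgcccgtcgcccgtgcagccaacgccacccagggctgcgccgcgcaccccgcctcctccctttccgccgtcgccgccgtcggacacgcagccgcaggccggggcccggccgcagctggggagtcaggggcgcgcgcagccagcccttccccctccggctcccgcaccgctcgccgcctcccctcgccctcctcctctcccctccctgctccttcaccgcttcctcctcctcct
A430005L14Rik: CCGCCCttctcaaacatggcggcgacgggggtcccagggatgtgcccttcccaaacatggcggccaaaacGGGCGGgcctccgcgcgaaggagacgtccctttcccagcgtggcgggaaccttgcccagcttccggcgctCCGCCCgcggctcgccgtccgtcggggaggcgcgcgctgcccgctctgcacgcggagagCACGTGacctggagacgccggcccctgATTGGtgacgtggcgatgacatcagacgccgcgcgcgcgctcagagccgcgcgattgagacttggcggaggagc
The Rab6b promoter held 1 GC box. The A430005L14Rik promoter held 3 GC boxes, 1 CCAAT box and 1 E-box, which began 51 bases before the start. Among the 32851 promoters of the same length, 35.7% held a GC box, 37.4% a CCAAT box and 7.15% this E-box. Neither of the 2 promoters held a match to the NF-kB consensus, the binding motif of the transcription factor downstream of the TNF receptors, which was found in 5.81% of all promoters, or to TATAAA, found in 13.6%. Guanine and cytosine made up 78.7% of the Rab6b promoter and 71.3% of the A430005L14Rik promoter, against a median of 52.7% over all promoters.

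The deposited intensities were similar across arrays, with medians of 213 to 247 per array. Tnfr+/+ 72 h O3 replicate 1 stood apart: its ratio of the 3′ to the 5′ Gapdh control probe set was 4.45, against 0.89 to 1.43 on the 12 Tnfr-/- arrays and 1.02 to 1.74 on the other 11 Tnfr+/+ arrays. The ratio also differed by genotype at some exposures. After 24 h it was 1.53 to 1.74 on Tnfr+/+ arrays and 1.03 to 1.22 on Tnfr-/- arrays. After 48 h it was 1.30 to 1.33 and 1.01 to 1.13. The genotypes overlapped in air and after 72 h. Among the Tnfr-/- arrays, those after O3 (at most 1.22) all lay below those in air (at least 1.28). The part of this ratio in the values below was not tested. Both disrupted genes were read first. One Tnfrsf1b probe set (1418099_at) lay at 151 to 266 on the Tnfr-/- arrays and at 356 to 525 on the Tnfr+/+ arrays, a log2 difference of -0.97 (SE 0.081), and the other (1448951_at) at 104 to 222 on the Tnfr-/- arrays and 108 to 293 on the Tnfr+/+ arrays (log2 difference -0.14, SE 0.15, adjusted p = 0.62, limma). The Tnfrsf1a probe set gave 1399 to 2341 on the Tnfr-/- arrays and 2030 to 3623 on the Tnfr+/+ arrays, a log2 difference of -0.41 (SE 0.11, adjusted p = 0.037, limma). Where these probes lie relative to the disrupted exons was not known here, so their levels are no full check of the labels.

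Nnt mRNA was about doubled in Tnfr-/- lungs. At the brighter probe set (1416105_at), the normalized intensity on the 3 Tnfr-/- arrays was 1067, 1090 and 995 in air, 900, 776 and 725 after 24 h of O3, 960, 845 and 950 after 48 h, and 930.0, 905 and 737 after 72 h. On the Tnfr+/+ arrays it was 511, 377 and 469 in air, 498, 437 and 438 after 24 h, 457, 363 and 337 after 48 h, and 377, 431 and 376 after 72 h. All 12 Tnfr-/- arrays lay above all 12 Tnfr+/+ arrays, with a gap between the lowest Tnfr-/- value of 725 (24 h of O3) and the highest Tnfr+/+ value of 511 (air). The average over the 4 exposures was 907 ± 119 in Tnfr-/- lungs and 422 ± 56.1 in Tnfr+/+ lungs (SD, n = 12 each), a log2 difference of 1.10 (SE 0.071, 95% confidence interval 0.95 to 1.25) or 2.15-fold. The second Nnt probe set (1456573_x_at) was dimmer, at 233 to 459 in Tnfr-/- lungs and 74.2 to 227 in Tnfr+/+ lungs. It gave nearly the same ratio, 2.22-fold, with a wider error (log2 difference 1.15, SE 0.17). Its genotypes also did not overlap, but by a margin of only 233 against 227.

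Rab6b moved the other way and by more. Its single probe set (1434914_at) read 128, 150 and 147 in Tnfr-/- lungs in air, 68.7, 92.3 and 102 after 24 h of O3, 112, 70.2 and 60.0 after 48 h, and 107, 91.1 and 85.5 after 72 h. In Tnfr+/+ lungs it read 499, 543 and 558 in air, 590, 269 and 367 after 24 h, 342, 438 and 368 after 48 h, and 400, 300 and 281 after 72 h. The highest Tnfr-/- value, 150 in air, was below the lowest Tnfr+/+ value, 269 after 24 h of O3. Means over the exposures were 101 ± 29.3 in Tnfr-/- lungs and 413 ± 112 in Tnfr+/+ lungs (SD, n = 12 each). The log2 difference was -2.04 (SE 0.13, 95% confidence interval -2.30 to -1.77), so that Rab6b was 4.11-fold higher in Tnfr+/+ lungs. Every Tnfr-/- array still exceeded the 20th percentile of its array, 52.2, below which a probe set was treated as low.

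A430005L14Rik showed the most even difference. The probe set (1454682_at) read 948, 1043 and 1042 in Tnfr-/- lungs in air, 1138, 1086 and 1191 after 24 h of O3, 1087, 1126 and 1090 after 48 h, and 929, 1200 and 1000 after 72 h. In Tnfr+/+ lungs it read 502, 565 and 579 in air, 612, 645 and 549 after 24 h, 497, 575 and 831 after 48 h, and 653, 548 and 580 after 72 h. One Tnfr+/+ mouse, at 831 after 48 h, came nearest to the Tnfr-/- range, whose lowest value was 929. Means were 1073 ± 85.8 in Tnfr-/- lungs and 595 ± 88.4 in Tnfr+/+ lungs (SD, n = 12 each), a log2 difference of 0.86 (SE 0.075, 95% confidence interval 0.70 to 1.02) or 1.82-fold.

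Wdfy1 was read by 3 probe sets, which did not behave alike. At 1437358_at the Tnfr-/- arrays gave 402, 437 and 404 in air, 324, 314 and 364 after 24 h of O3, 362, 398 and 459 after 48 h, and 372, 419 and 347 after 72 h. The Tnfr+/+ arrays gave 205, 203 and 240 in air, 292, 226 and 216 after 24 h, 169, 180 and 189 after 48 h, and 164, 135 and 130 after 72 h. The genotypes were closest after 24 h, where 314 in a Tnfr-/- lung stood next to 292 in a Tnfr+/+ lung, and farthest apart after 72 h. The averaged log2 difference was 1.00 (SE 0.068), with means of 383 ± 44.0 in Tnfr-/- lungs and 196 ± 45.6 in Tnfr+/+ lungs (SD, n = 12 each). The second probe set (1424749_at) gave 297 to 440 in Tnfr-/- lungs and 135 to 296 in Tnfr+/+ lungs, a log2 difference of 1.06 (SE 0.092), again without overlap. The third (1453426_a_at) was near the low end of the array, at 9.59 to 94.7 in Tnfr-/- lungs and 24.5 to 44.4 in Tnfr+/+ lungs. It lay below the 20th percentile on 7 of 12 Tnfr-/- arrays and on 12 of 12 Tnfr+/+ arrays. Its log2 difference was 0.59 (SE 0.29, 95% confidence interval -0.01 to 1.19), and the genotypes overlapped in air, at 24 h and at 72 h.

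**Figure D1:**
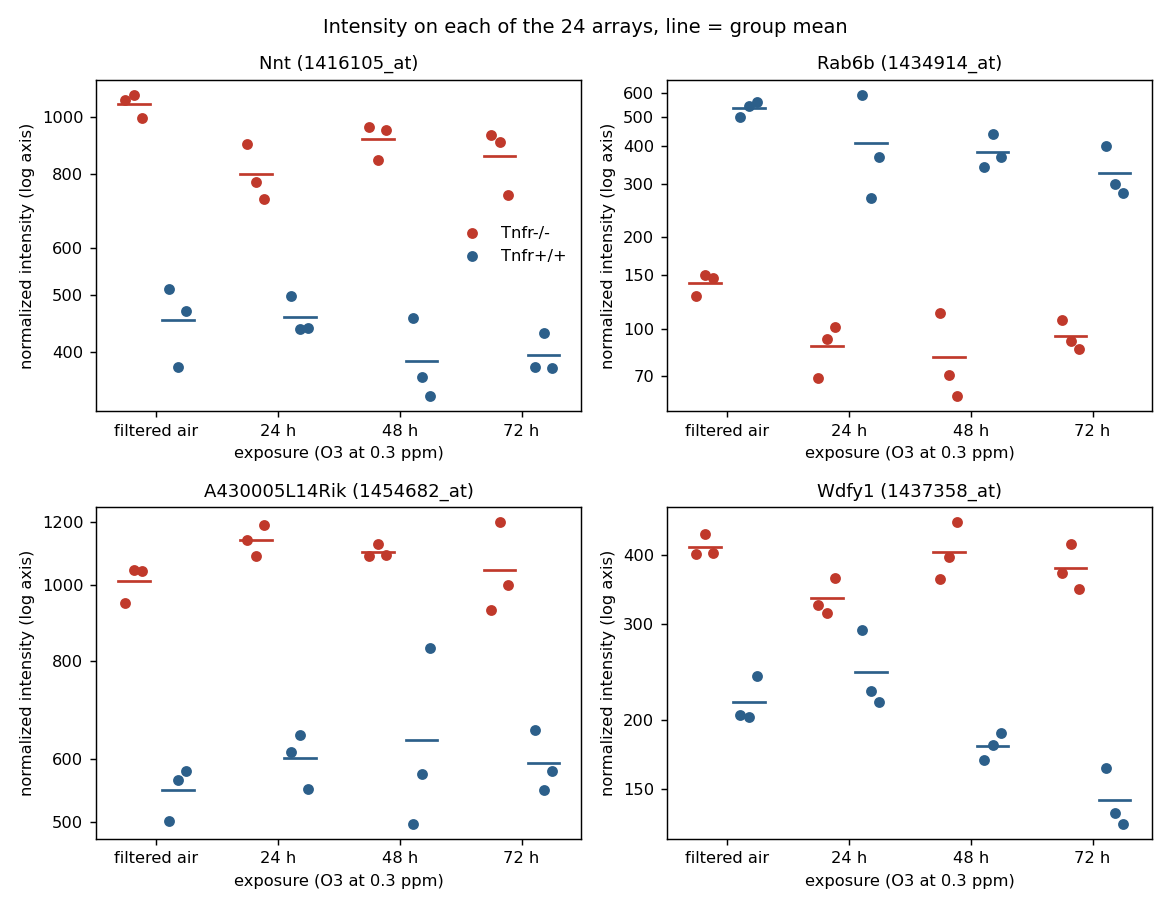
Normalized intensity (log axis) of 1 probe set of each gene on each of the 24 arrays, by exposure (filtered air, or O3 for 24, 48 or 72 h); red points are Tnfr-/- mice, blue points Tnfr+/+ mice, and lines the group means (n = 3). In no panel do the red and the blue points overlap, Rab6b is the gene with the blue points on top, and Wdfy1 at 24 h has the narrowest gap (314 against 292).

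The 4 genes differed in how constant the difference was. For A430005L14Rik the 4 log2 differences between Tnfr-/- and Tnfr+/+ lungs were 0.88 in air, 0.92 after 24 h, 0.83 after 48 h and 0.81 after 72 h, a range of 0.11 beside a standard error of 0.15 for each. Nnt (1416105_at) gave 1.23 in air, 0.80 after 24 h, 1.26 after 48 h and 1.12 after 72 h (SE 0.14 each). Rab6b gave -1.92, -2.16, -2.29 and -1.78 in the same order (SE 0.25 each). Wdfy1 (1437358_at) varied most among the brightest probe sets of the 4 genes, with 0.94 in air, 0.46 after 24 h, 1.17 after 48 h and 1.41 after 72 h (SE 0.14 each), a range of 0.95. The smallest value of Nnt and of both brighter Wdfy1 probe sets fell at 24 h. Since the genes had been chosen as constant, whether the differences varied with exposure was not tested.

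**Figure D2:**
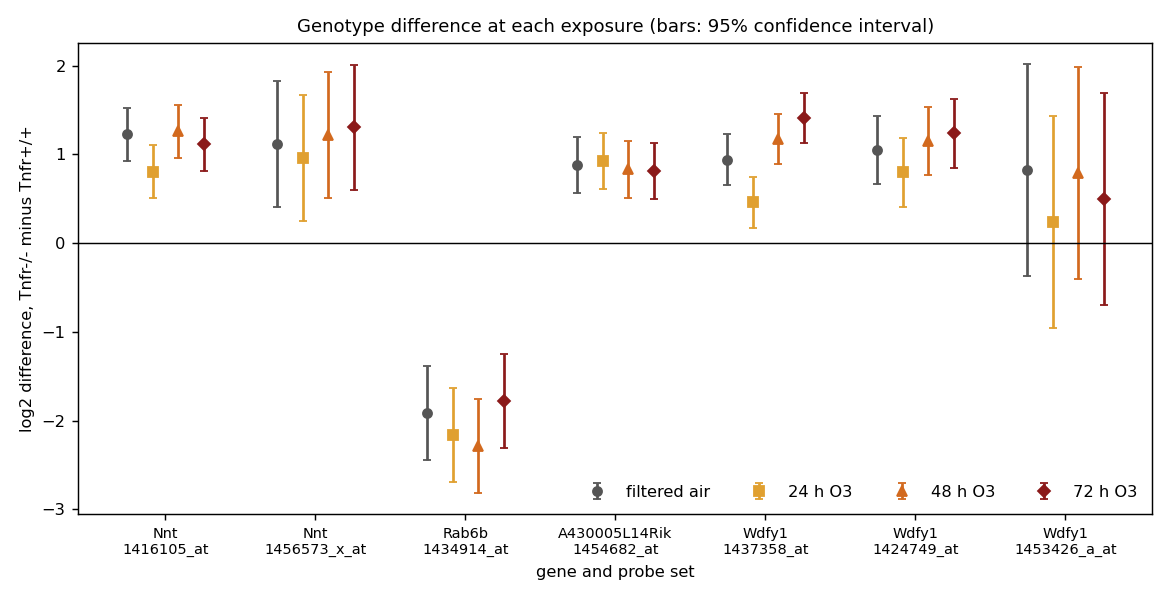
Log2 difference between Tnfr-/- and Tnfr+/+ lungs at each exposure for all 7 probe sets, with 95% confidence intervals from the limma fit (3 arrays per group). The 4 values of A430005L14Rik lie between 0.81 and 0.92, those of Wdfy1 1437358_at between 0.46 and 1.41, and all intervals of the low probe set Wdfy1 1453426_a_at include 0.

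Over all probe sets kept, 3.17% were higher and 2.47% lower in Tnfr-/- lungs at an adjusted p under 0.05 (limma, averaged over the 4 exposures), together 1160 probe sets, or 757 without Tnfr-/- 48 h O3 replicate 2. Counted 1 probe set per gene, 1.88% of 11597 genes were higher and 2.74% lower. A full separation of the genotypes was rarer: 19 probe sets (0.0925%) had all 12 Tnfr-/- arrays above all 12 Tnfr+/+ arrays, and 15 (0.073%) had all below. These 34 included 6 of the 7 probe sets described here, which nothing is read from because that contrast chose the genes. Without Tnfr+/+ 72 h O3 replicate 1, the log2 differences were 1.09 and 1.14 for the Nnt probe sets, -1.998 for Rab6b, 0.88 for A430005L14Rik and 1.02, 1.06 and 0.65 for the Wdfy1 probe sets.

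The response to O3 within each genotype was tested, with 1 F test per probe set and genotype over the 3 times against air. These tests were not independent of the choice of the genes. A gene that moved strongly with O3 in 1 genotype alone would have been less constant and less likely to be chosen. Over all probe sets, 3.97% passed an adjusted p of 0.05 in Tnfr-/- lungs and 2.22% in Tnfr+/+ lungs (limma; 816 and 455 probe sets; 438 in Tnfr-/- lungs without Tnfr-/- air replicate 3, 539 without Tnfr-/- air replicate 2, and 286 in Tnfr+/+ lungs without Tnfr+/+ air replicate 3). Of the 14 such tests on the 7 probe sets, 1 passed. Wdfy1 (1437358_at) changed in Tnfr+/+ lungs (adjusted p = 0.014, limma), with a log2 difference from air of 0.17 after 24 h, -0.26 after 48 h and -0.60 after 72 h (SE 0.14 each). All 3 Tnfr+/+ arrays lay below the air arrays after 48 h and again after 72 h. Without Tnfr+/+ 72 h O3 replicate 3, the adjusted p of this limma test was 0.057. In Tnfr-/- lungs the same probe set gave -0.31, -0.03 and -0.13 in the same order (SE 0.14 each, adjusted p = 0.46, limma). The difference between these 2 responses is the change of the genotype difference described above and was not tested. The other well-measured Wdfy1 probe set (1424749_at) did not pass in Tnfr-/- lungs (adjusted p = 0.67) or in Tnfr+/+ lungs (adjusted p = 0.24, limma). It gave a log2 difference from air of 0.45 after 24 h and -0.14 after 72 h in Tnfr+/+ lungs (SE 0.18 each). Whole lung RNA cannot tell fewer cells of a type from less RNA per cell.

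Rab6b values after O3 lay below those in air in both genotypes without passing the test. In Tnfr-/- lungs all 9 O3 arrays (60.0 to 112) were below the 3 air arrays (128 to 150), with log2 differences of -0.71, -0.86 and -0.59 at 24, 48 and 72 h (SE 0.25 each, adjusted p = 0.16, limma). In Tnfr+/+ lungs the differences were -0.46, -0.48 and -0.72 (SE 0.25 each, adjusted p = 0.35, limma), and 1 of the 9 O3 arrays, at 590 after 24 h, exceeded every air array. Nnt (1416105_at) in Tnfr-/- lungs was below its air arrays on all 9 O3 arrays, by -0.40, -0.20 and -0.30 on the log2 scale (SE 0.14 each, adjusted p = 0.33, limma). On the same 9 arrays the Gapdh ratio was also below that of the Tnfr-/- air arrays, and its part in these differences was not tested. In Tnfr+/+ lungs the Nnt differences were 0.03, -0.23 and -0.19 (SE 0.14 each, adjusted p = 0.57, limma). A430005L14Rik gave 0.04 to 0.17 in Tnfr-/- lungs (adjusted p = 0.87) and 0.11 to 0.18 in Tnfr+/+ lungs (adjusted p = 0.88, limma; SE 0.15 each). The 95% confidence intervals of its 6 differences ran from -0.28 to 0.49.

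**Figure D3:**
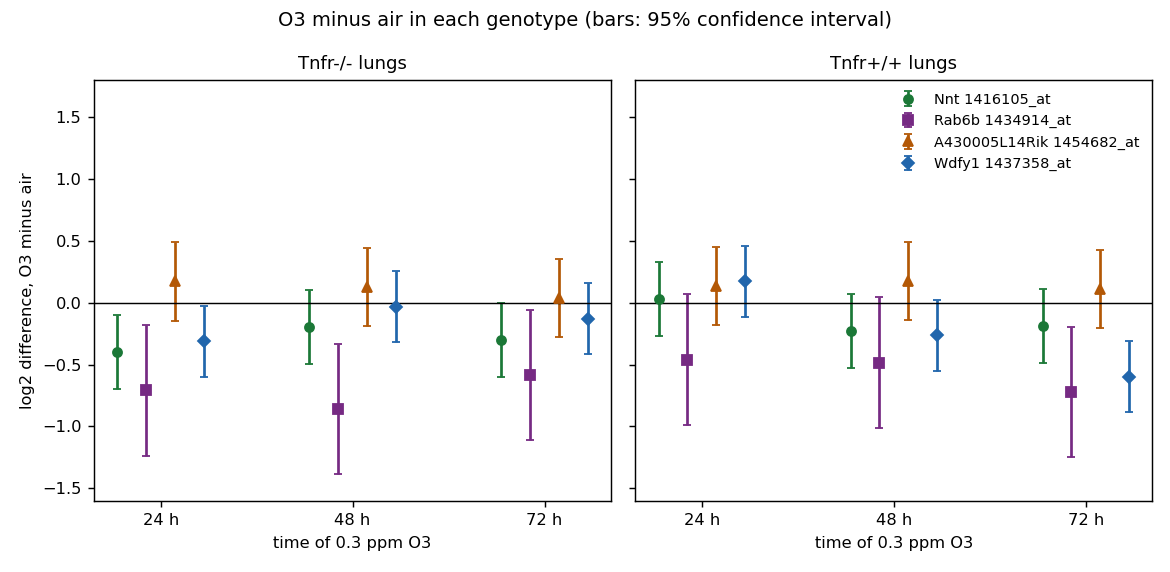
Log2 difference of each O3 group from the air group of the same genotype, left Tnfr-/- and right Tnfr+/+, for 1 probe set per gene, with 95% confidence intervals from the limma fit. The interval of Wdfy1 in Tnfr+/+ lungs at 72 h (-0.89 to -0.31) excludes 0 in the only series of the figure whose F test passed. Other intervals exclude 0 in series that did not pass. These are Rab6b in Tnfr-/- lungs at every time and in Tnfr+/+ lungs at 72 h. In Tnfr-/- lungs they are also Nnt at 24 and 72 h and Wdfy1 at 24 h. Rab6b lies below 0 at every time in both panels.

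The 4 genes lie on 4 chromosomes, and 1 of them shares a chromosome with a disrupted gene. Gene order was read from RefSeq on GRCm38.p6, over measured genes only. A430005L14Rik is the 649th and Tnfrsf1b the 591st of 690 measured genes on chromosome 4, with 57 measured genes between them. Rab6b is the 461st of 648 on chromosome 9, Nnt the 403rd of 413 on chromosome 13, close to the end of the chromosome, and Wdfy1 the 220th of 664 on chromosome 1. Tnfrsf1a, the other disrupted gene, is on chromosome 6 and shares it with none of the 4.

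Genes that differed between the genotypes were counted among the neighbours of each gene. Of the 25 measured genes on each side of A430005L14Rik, 2 were higher and 7 lower in Tnfr-/- lungs, 18% of 50 against 4.62% of all genes. Beside Tnfrsf1b the count was 6 higher and 4 lower of 50 (20%), and beside Tnfrsf1a 1 higher and 2 lower of 50 (6%). Beside Nnt it was 2 higher and 2 lower of 35, since 10 measured genes follow it on the chromosome (11.4%). Beside Rab6b and beside Wdfy1 it was 1 higher and 1 lower of 50 each (4%). The differences between these shares were not tested, and neighbouring genes are not independent of each other. The share beside Nnt was above that beside A430005L14Rik with the intensities as deposited (6 of 35 and 8 of 50), without Tnfr-/- 48 h O3 replicate 3 (6 of 35 and 7 of 50), and without Tnfr-/- 48 h O3 replicate 2 or Tnfr+/+ 24 h O3 replicate 2 (5 of 35 and 6 of 50 each).

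The called neighbours of A430005L14Rik included Gnb1, a G protein beta subunit, with a log2 difference of 0.79 (adjusted p = 1.1e-05, limma), and Dffb, the caspase-activated nuclease, with 0.78. Lower were Rpl22, a ribosomal protein, with -0.73, Gpr153, an orphan receptor, with -0.59, Spsb1 with -0.54, Vamp3, a vesicle SNARE, with -0.51, Faap20 with -0.34, Phf13 with -0.30 and Tprgl with -0.23. Beside Tnfrsf1b, the higher genes were Zfp991 (0.99), Plod1, a collagen lysyl hydroxylase (0.73), Fbxo6 (0.45), Clcn6 (0.40), Kazn (0.37) and Dffa, the inhibitor of the Dffb nuclease (0.27). The lower genes there were Miip (-0.59), Fbxo2 (-0.57), Pdpn, a surface protein of alveolar type 1 cells (-0.49), and Padi1 (-0.42). Beside Nnt the called genes were Esm1, an endothelial proteoglycan (0.84), Plk2 (0.43), Hspb3 (-0.50) and Gzma, a granzyme of cytotoxic lymphocytes (-1.19). Beside Rab6b they were Ackr4, a scavenging chemokine receptor (1.14), and 1300017J02Rik (-0.41), and beside Wdfy1 Ncl, encoding nucleolin (0.48), and Mff (-0.32). Beside Tnfrsf1a they were Cops7a (0.35), Ccnd2 (-0.29) and Klrb1b (-0.53).

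The stretch of chromosome 4 from Tnfrsf1b to the chromosome end was examined after these counts were seen. Leaving out Tnfrsf1b and A430005L14Rik, 22 of its 98 measured genes (22.4%) differed between the genotypes, 8 higher and 14 lower. Of the 590 measured genes before Tnfrsf1b, 32 (5.42%) differed, and off chromosome 4 the share was 4.41%. The median size of the log2 difference was 0.21 in the stretch, 0.11 before it and 0.13 over all genes. The share was 22.8% between Tnfrsf1b and A430005L14Rik and 22.0% after A430005L14Rik. Such a share was not particular to this stretch: 26% of the 50 genes around Nnmt on chromosome 9 also differed. The line's genotype at these loci was not measured.

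**Figure D4:**
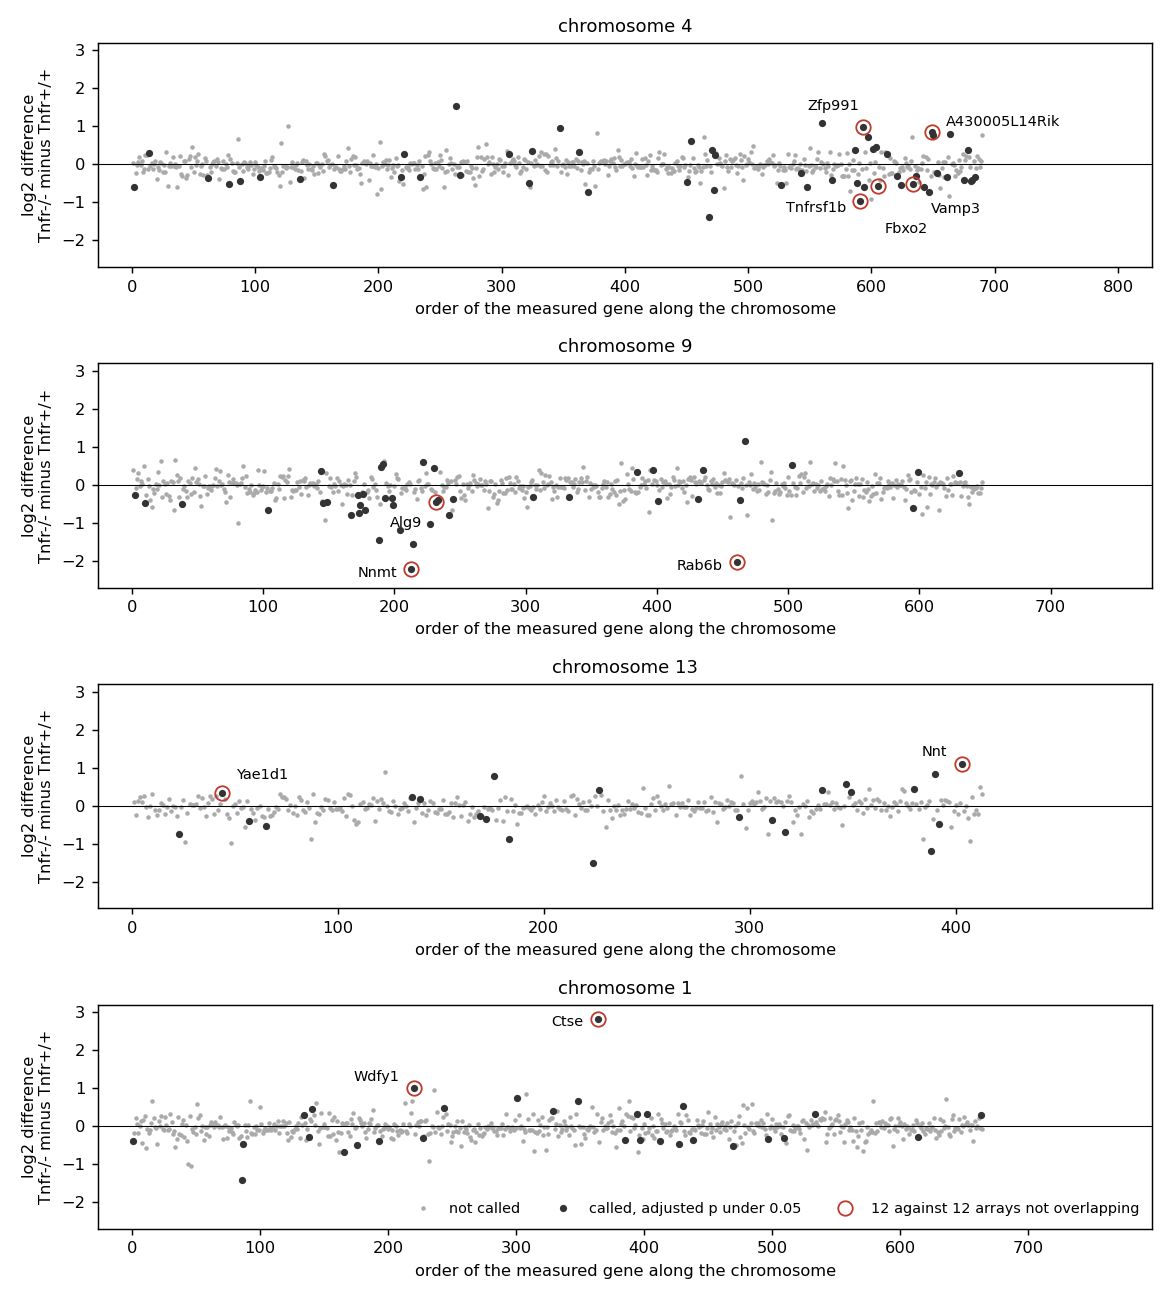
Log2 difference between Tnfr-/- and Tnfr+/+ lungs for measured genes in their order along chromosomes 4, 9, 13 and 1 (1 probe set per gene, the brightest); black points passed an adjusted p of 0.05 and circles mark genes whose 12 and 12 arrays did not overlap. Circles and black points gather at the right end of chromosome 4, from Tnfrsf1b on. Black points also gather around Nnmt on chromosome 9 (13 of the 50 genes around it). Among the neighbours of Rab6b, Nnt and Wdfy1, 2 of 50, 4 of 35 and 2 of 50 are black.

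Counted over every probe set, the genotypes separated fully for 21 genes with a single annotation. The counts were 7 on chromosome 4, 4 on chromosome 9, 3 on chromosome 13, 2 each on chromosomes 1 and 11, and 1 each on chromosomes 2, 3 and 17. All 7 on chromosome 4 (Tnfrsf1b, Zfp991, Fbxo2, Vamp3, A430005L14Rik, C1qtnf12 and Sdf4) lie from Tnfrsf1b to the end. The 4 on chromosome 9 were Rab6b, Nnmt, Hyou1 and Alg9, the 3 on chromosome 13 were Nnt, Slc12a7 and Yae1d1, and Wdfy1 had Ctse with it on chromosome 1. Differences larger than that of Rab6b were seen at single probe sets of Ctse, the aspartic protease cathepsin E (log2 difference 2.82), C1qtnf12 (-2.35), Vamp3 (-2.25) and Sdf4 (2.10). They were also seen for Pttg1, the securin that holds sister chromatids together (-2.61 and -2.47 at 2 probe sets), and Nnmt, nicotinamide N-methyltransferase (-2.22). The brighter C1qtnf12 probe sets gave -0.44, -0.63 and -0.26, and this Sdf4 probe set was dim, at a mean of 34.7 over all arrays. Tshb (1.47), Cd59a, a complement inhibitor (1.31), and Hyou1, a chaperone of the endoplasmic reticulum (1.24), followed between Rab6b and Nnt in size. The brightest probe sets of Cd59a and Hyou1 gave less, 0.53 and 0.31, and that of Hyou1 was not called.

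Probe sets of the same gene often disagreed among these genes, and those of Nnt did not. Of the 21 genes, 14 had several probe sets, and in 4 of them every probe set was called in the same direction: Nnt, Pttg1, C1qtnf12 and Cd59a. Nnt was the only one of the 14 in which every probe set separated the genotypes fully. At 1456573_x_at the margin was only 233 against 227. Nothing is read from this, because the genotype difference chose Nnt. Wdfy1 had 2 of 3 probe sets called. Ctse gave 2.82 at one probe set and -0.09 at the other, Sdf4 2.10 and 0.10, and Zfp991 0.99 and -2.14. The 5 probe sets of Vamp3 ran from -2.25 to 0.10, and those of Tnfrsf1b gave -0.97 and -0.14. Rab6b and A430005L14Rik had 1 probe set each, so no such comparison was possible for them. Sequence and transcript structure were not measured here.

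**Figure D5:**
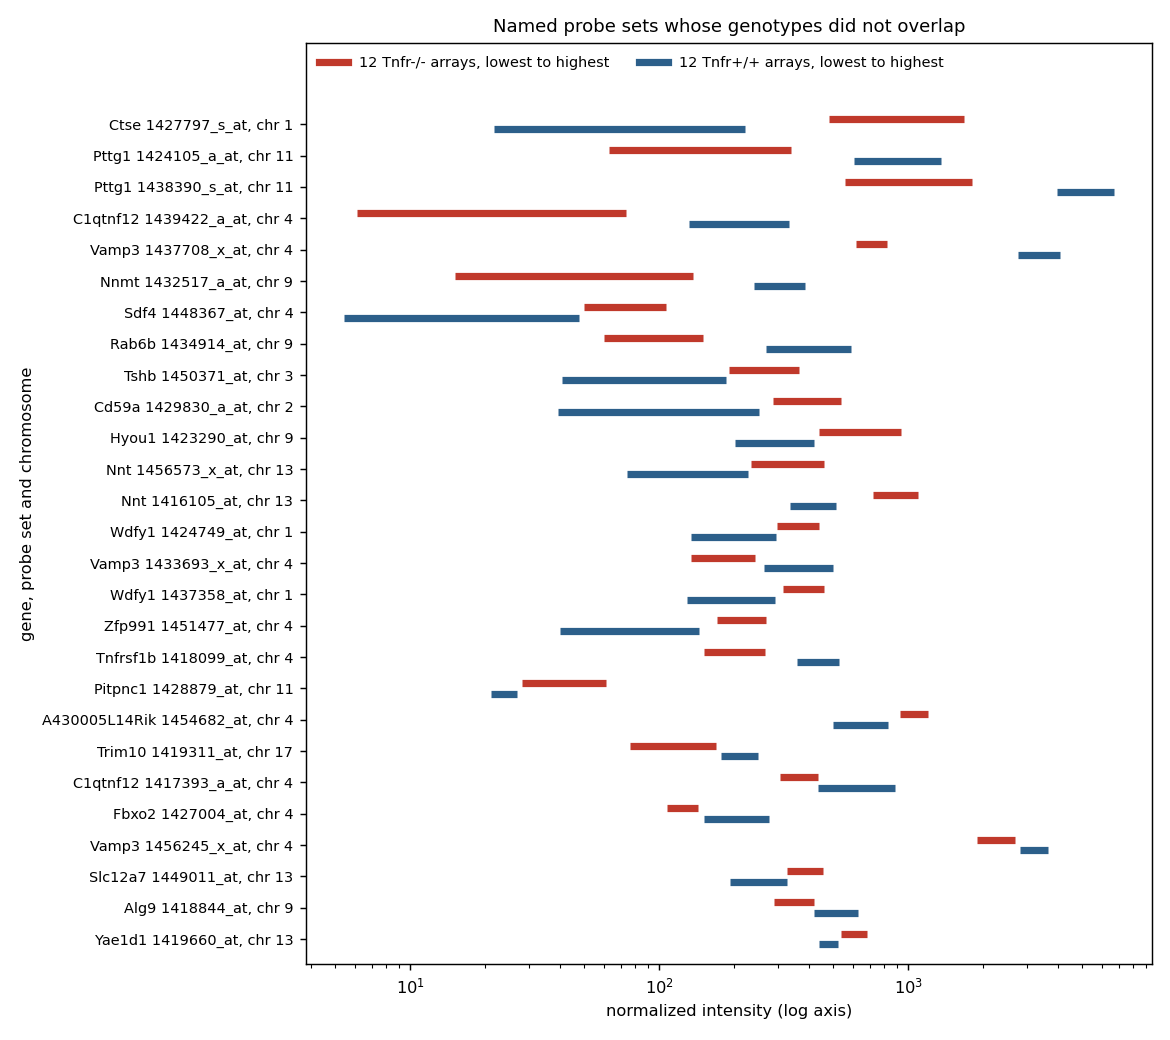
Lowest to highest normalized intensity (log axis) over the 12 Tnfr-/- arrays (red) and the 12 Tnfr+/+ arrays (blue) for each probe set with 1 gene whose genotypes did not overlap, largest log2 difference on top. Nnt and Wdfy1 have 2 probe sets each here with the red bar to the right, and Rab6b has its red bar (60.0 to 150) to the left of its blue bar (269 to 590).

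The genes with the most similar pattern over the 24 arrays were found from the root mean square (RMS) difference in log2 intensity, each probe set being centred on its Tnfr+/+ mean. Nnt and Wdfy1 were the closest pair (RMS difference 0.24), although they lie on different chromosomes. A430005L14Rik was nearest to Wdfy1 (0.30), Ifrd2 (0.32) and Ajuba (0.33), and Nnt was next nearest to A430005L14Rik (0.34) and Gnb1 (0.36). Wdfy1 was next nearest to Gnb1 (0.29) and A430005L14Rik (0.30). The patterns nearest to Rab6b were farther off, namely Pttg1 (0.65), Nnmt (0.73) and Gzma (0.84). All these genes were measured on the same 24 arrays, and the measure is governed by the genotype difference that chose the 4 genes.

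Other genes of the pathways in which the 4 proteins work were examined next, with 1 probe set per gene. Of 18 measured genes of NADPH supply and mitochondrial peroxide removal, 0 passed an adjusted p of 0.05 (limma), 5 had an unadjusted p under 0.05, and 0 passed the methods' t-test after adjustment. Over all 11597 genes, 4.62% passed in limma, 20.8% had an unadjusted p under 0.05 and 2.85% passed the methods' t-test, beside which the 5 of 18 make 27.8%. The median log2 difference of the 18 genes was 0.01, against -0.03 over all genes. The largest values were those of Me2, the mitochondrial malic enzyme (0.31, SE 0.097, adjusted p = 0.067, limma), and Gpx4, a glutathione peroxidase (0.23, SE 0.090). Of 18 genes of Rab6 and Golgi transport, 0 passed (limma, against 4.62% of all genes), 1 had an unadjusted p under 0.05 (5.56%, against 20.8%) and 0 passed the methods' t-test after adjustment (against 2.85%), with a median of 0.01. The largest values were those of Gcc2, a golgin (1.59, SE 0.49, from low intensities of 33.4 ± 19.4 in Tnfr-/- lungs and 11.3 ± 9.19 in Tnfr+/+ lungs, SD, n = 12 each), and Rab6a, the closest relative of Rab6b (-0.22, SE 0.14, adjusted p = 0.36, limma).

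Of 18 genes for FYVE proteins, early endosomes and Toll-like receptor signaling, 0 passed (limma, against 4.62% of all genes), 5 had an unadjusted p under 0.05 (27.8%, against 20.8%) and 0 passed the methods' t-test after adjustment (against 2.85%), with a median of 0.00. The largest values were those of Rab5b, a GTPase of early endosomes (0.44, SE 0.14, adjusted p = 0.071, limma), and Pik3c3, the lipid kinase that makes phosphatidylinositol 3-phosphate (0.38, SE 0.13). Of 24 genes of TNF receptor signaling, 0 were higher and 2 lower in Tnfr-/- lungs, namely the disrupted Tnfrsf1a and Tnfrsf1b (8.33%, against 4.62% of all genes), and the median was 0.00. An unadjusted p under 0.05 was found for 5 of the 24 (20.8%, the share of all genes), and 2 passed the methods' t-test after adjustment (8.33%, against 2.85%).

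Markers of the tissues that a lung sample can carry were summed on each array. The 15 measured lung markers summed to 182857 to 197323 in Tnfr-/- lungs and 178571 to 195695 in Tnfr+/+ lungs, with Pdpn called lower (-0.49). The 8 neuron markers, of interest for Rab6b, summed to 1134 to 1363 in Tnfr-/- lungs and 1105 to 1493 in Tnfr+/+ lungs, and 0 of them were called. The 7 heart muscle markers summed to 3510 to 7372 in Tnfr-/- lungs and 4017 to 10944 in Tnfr+/+ lungs, with Myh6 (-0.78) and Tnni3 (-0.66) called lower. The 9 liver markers summed to 426 to 901 in Tnfr-/- lungs and 526 to 2403 in Tnfr+/+ lungs, with Apoa1 called lower (-1.18). The 3 red cell markers summed to 1548 to 4942 in Tnfr-/- lungs and 2273 to 10330 in Tnfr+/+ lungs, with Slc4a1 called lower (-0.50). Over all genes, 4.62% were called. The sums of all 5 lists overlapped between the genotypes. Their medians were lower in Tnfr-/- lungs for heart muscle (4454 against 6885), liver (567 against 808) and red cells (3949 against 4956). They were close for lung (187048 against 189668) and neurons (1234 against 1232). Every measured heart muscle and liver marker had a negative log2 difference, though most were not called. The part of these tissues in the 4 differences was not tested.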

How the data were processed

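RNA of 24 mouse left lungs had been hybridised to MOE430A arrays. The authors deposited 1 linear intensity per probe set, made per the labels with MAS5 in Affymetrix Expression Console; versions and a genome build are not given in the sources used here. The filter and the quantile normalization that the methods name were not in the deposited intensities and were applied here. A probe set was kept if it reached the 20th percentile of the array on at least 1 array. Controls were left out and a floor of 1 was applied before the log2 transformation. One limma 3.58.1 model (R 4.3.3) with a mean per group was fitted to all 24 arrays, with 16 residual degrees of freedom, Benjamini-Hochberg adjustment over the probe sets kept, and calls at an adjusted p under 0.05. The script was tested on simulated data. Precision is limited by how many arrays there were, 3 per group.

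Of the probe sets, 20338 had 1 gene (20309 matched to a current gene), 691 several, 1551 none listed and 64 were controls. A gene stood for its probe set with the highest mean. Named genes were the members, Tnfrsf1a and Tnfrsf1b, up to 12 other genes with separated arrays and a log2 difference of at least 1, called neighbours among 25 genes on each side, called list members or else the 2 with the largest difference, and the 3 most alike genes of each member. Members and lists were chosen with earlier results of these data known. Replicate numbers were not used to pair mice. Other normalizations, filters, a floor of 16, array weights, a replicate block and each array left out were tried.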

Additional observations from a re-analysis of the deposited data

How the results depend on the processing

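The genotype differences of the 7 probe sets kept their direction under every alternative that could be run, with log2 differences of 1.06 to 1.14 and 1.03 to 1.22 for Nnt, -2.11 to -1.96 for Rab6b, 0.82 to 0.93 for A430005L14Rik, and 0.97 to 1.03, 1.01 to 1.12 and 0.38 to 0.80 for Wdfy1. This difference chose the genes, and 6 of the 7 probe sets separated all arrays in the main fit. Leaving out an array could not reverse those 6, so the kept direction supports nothing. The stricter filter removed the low Wdfy1 probe set. Among the 34 probe sets with separated genotypes the count ran from 29 to 39. The Wdfy1 O3 test in Tnfr+/+ lungs (adjusted p = 0.014, limma) ranged from 0.0043 to 0.057, the highest without Tnfr+/+ 72 h O3 replicate 3.

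Counts of calls moved more. With array weights, 1945 probe sets differed between the genotypes in place of 1160, and 2209 and 687 responded to O3 in Tnfr-/- and Tnfr+/+ lungs in place of 816 and 455. The pooled t-test of the 12 Tnfr-/- against the 12 Tnfr+/+ arrays, which ignored exposure, called 706 after adjustment and 4004 before it. Leaving out single arrays gave 757 to 1418 for genotype, 438 to 1197 for O3 in Tnfr-/- lungs and 286 to 491 for O3 in Tnfr+/+ lungs. With the replicate number as a replicate block, 624 probe sets were higher and 504 lower, and no call on the 7 probe sets changed. No shared signal was seen between arrays with the same number: 1 of 12 such pairs correlated over 0.1 (median r 0.00054). These correlations cannot show whether such mice were exposed or processed together.

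Neighbours called beside Tnfrsf1b were 17 with array weights, 17 with 50 genes on each side and 22 from Tnfrsf1b to the chromosome end, a stretch chosen after seeing the data. Beside Tnfrsf1a the called neighbours were 6 with the stricter filter, 5 with array weights and 8 of 100 (8%) with 50 genes on each side. Beside Nnt they were 2 of 29 (6.9%) with the stricter filter. Beside Rab6b they were 5 of 100 (5%) with 50 genes on each side and 4 of 50 (8%) with the most variable probe set of each gene. Beside A430005L14Rik they were 15 of 50 (30%) with the stricter filter and 19 of 91 (20.9%) with 50 genes on each side. Beside Wdfy1 they were 6 of 50 (12%) both with the stricter filter and with array weights. With 50 genes on each side they were 4 of 100 (4%), and with the most variable probe set 0 of 50. Leaving out single arrays gave 10 to 13 beside Tnfrsf1b, 2 to 3 beside Tnfrsf1a, 4 to 6 beside Nnt, 2 to 3 beside Rab6b, 6 to 10 beside A430005L14Rik and 1 to 4 beside Wdfy1. The cause of these shifts was not tested. The 3 arrays per group and the lack of deposited detection calls limit what low probe sets can show.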

Other observations

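Counts of called neighbours were also taken for the other genes whose arrays did not overlap between the genotypes, with the same 25 genes on each side; these counts were chosen after the gene order was seen and were not tested. On chromosome 9, the chromosome of Rab6b, 13 of the 50 genes around Nnmt differed between the genotypes (26%), 4 higher and 9 lower in Tnfr-/- lungs. Nnmt, which encodes nicotinamide N-methyltransferase, lies 247 measured genes from Rab6b, outside the neighbours counted for Rab6b. Around Hyou1, on the same chromosome, 12 of 50 differed (24%), 2 higher and 10 lower, and these neighbours partly overlap those of Nnmt. Around Tshb on chromosome 3, 9 of 50 differed (18%), 3 higher and 6 lower. Around Cd59a on chromosome 2 the count was 1 of 50 (2%). Over all genes, 4.62% differed. Outside chromosomes 4 and 9 the share was 0% around Trim10, 2% around Slc12a7 and 4% around Ctse. It was 6% around Pttg1 and around Yae1d1, and 8% around Pitpnc1. Around Alg9 on chromosome 9 it was 16%. On chromosome 4 it ran from 17.6% around C1qtnf12 to 22% around Fbxo2.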
